A study of Mus musculus with 8 samples.

Results

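The genes described here are 10 members of the interleukin-6 (IL-6) cytokine family and its signalling path, chosen by symbol from the 53801 genes of the table. They comprised 3 ligands (Il6, Lif and Il11), 5 receptor chains (Il6ra, Il6st, Osmr, Lifr and Il11ra1) and 2 genes of the STAT3 response (Stat3 and Socs3). RNA had been sequenced from stromal cells of MO5 melanomas, which are tumors of the B16 mouse melanoma line carrying ovalbumin, grown under the skin. The host mice were on a C57BL/6 background, 8 to 12 weeks old, and all carried a transgene in which Adam12 regulatory sequence drives Cre and GFP, so that GFP reports Adam12 activity in both groups. On day 8, PDPN+ PDGFRα+ cells without CD45 or CD31 were sorted into a GFP+ group (ADAM12+ cells, 4 libraries) and a GFP- group (ADAM12- cells, 4 libraries). GFP reads the transgene rather than the protein, and Adam12 transcripts were present in both groups, at 1362 ± 357 normalised counts in GFP- and 2302 ± 484 in GFP+ cells (SD, n = 4 each). The study counts n in mice and gives a single n for both sorted fractions, without saying whether the mice of the GFP+ and the GFP- libraries were the same.

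Cytokines of the IL-6 family signal through receptor complexes that share gp130, the product of Il6st. Binding of a ligand brings gp130 together with a ligand-specific chain, the attached JAK kinases phosphorylate STAT3, and STAT3 moves to the nucleus and induces its targets. One of these is Socs3, whose product binds gp130 and the kinases and shuts the signal off, so its transcript is widely used as a readout of recent signalling. Fibroblasts are a known source of IL-6, LIF and IL-11 in wounds and tumors.

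Il6, the receptor chains Il6st, Osmr and Il11ra1, and Socs3 were expressed at higher levels in GFP+ than in GFP- cells, by 2.09-fold for Il6, 1.81-fold for Il11ra1, 1.66-fold for Socs3, 1.64-fold for Il6st and 1.61-fold for Osmr. Il6ra and Lifr had higher means and Il11 a lower mean that did not pass the test, and Lif and Stat3 had log2 fold changes of 0.05 and 0.03. With DESeq2, 5 of the 10 genes were called higher and 0 lower at an adjusted p under 0.05, against 4.66% called higher and 4.76% lower among all 15283 genes tested. At an unadjusted p under 0.05, 1 of the 10 (Il11) was lower. By role, 1 of 3 ligands, 3 of 5 receptor chains and 1 of 2 STAT3 response genes were called. The quasi-likelihood test of edgeR called 3 of the 10, Il6, Il11ra1 and Socs3, where it called 2.83% of all its tested genes higher and 2.28% lower. For 4 genes (Il6, Il6st, Il11ra1 and Socs3) every GFP+ library lay above every GFP- library, against 6.37% of all genes tested, and for 0 every GFP+ library lay below, against 5.95%. The median log2 fold change, GFP+ over GFP-, was 0.63 for the 10 genes and -0.01 for all tested genes.

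**Figure D1:**
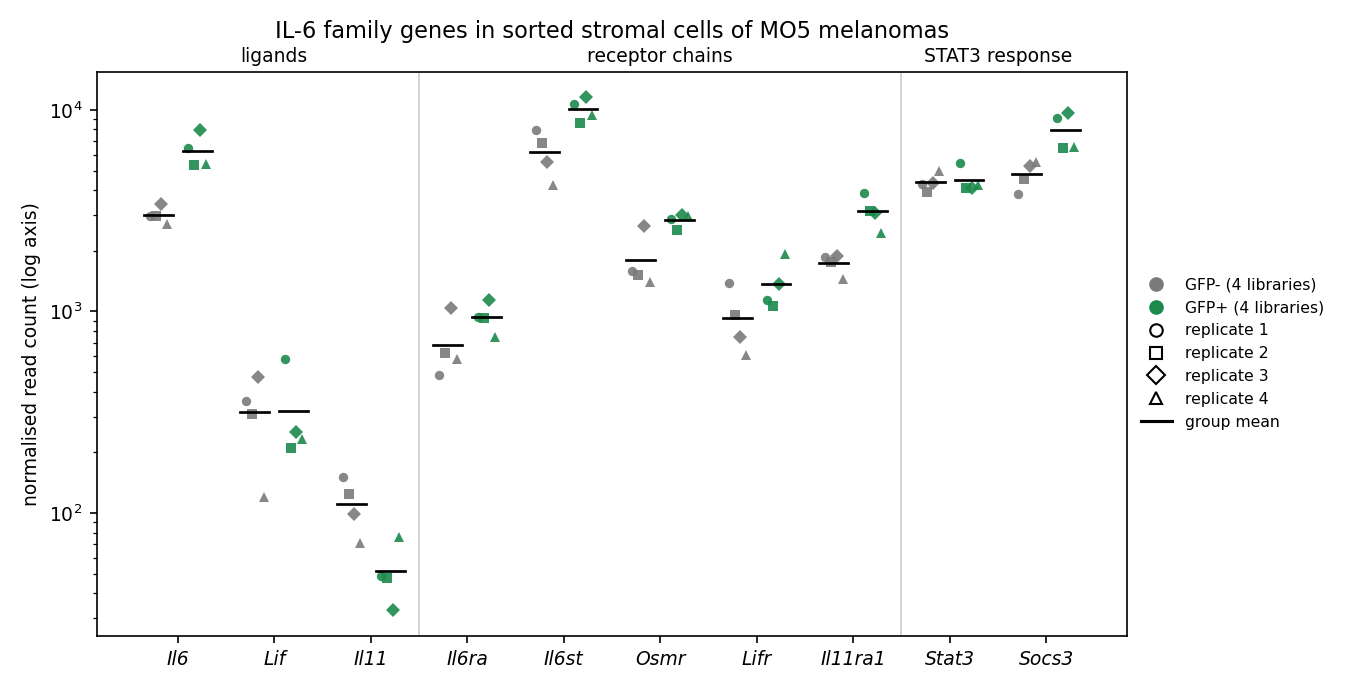
Normalised read counts (raw counts scaled by DESeq2's size factors, log axis) of the 10 genes in the 4 GFP- and 4 GFP+ libraries, with the group mean as a bar and the replicate number as the marker shape. The groups are apart for Il6, Il6st, Il11ra1 and Socs3, and for Osmr a single GFP- library, replicate 3 at 2670, lies among the GFP+ libraries.

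Total counts ranged from 883144 in GFP- replicate 3 to 31666734 in GFP+ replicate 4, and the size factors from 0.091 to 2.98. A read of GFP- replicate 3 therefore weighed most, and the values of that library rest on few reads, such as 312 for Il6 and 9 for Il11. The sort markers were present. Of 9 stromal genes DESeq2 called 6 higher in GFP+ cells and 0 lower, and edgeR 5 higher and 0 lower. Their summed normalised counts ran from 154000 to 297300 in GFP- and from 324300 to 380800 in GFP+ libraries, led by Col1a1, Col1a2 and Dcn, and Pdgfra rose by a log2 fold change of 1.32. The immediate early genes, a set that cells switch on within minutes of a stimulus, moved with the groups as well. Of 21 such genes DESeq2 called 11 higher and 0 lower, and edgeR 6 higher and 0 lower. Their sum ran from 104400 to 119400 in GFP- and from 154500 to 202100 in GFP+ libraries, led over all libraries by Egr1, Fosb and Jun. Over all genes tested, DESeq2 called 4.66% higher and 4.76% lower, and edgeR 2.83% higher and 2.28% lower. All 8 melanocyte markers were lower in GFP+ cells, led by Dct, Tyrp1 and Pmel, with sums of 26630 to 79540 in GFP- and 5741 to 13890 in GFP+ libraries and no more than 0.864% of the counts of any library. DESeq2 called 0 of 13 tested leukocyte markers and 0 of 5 endothelial markers, edgeR called 0 of the 12 and 3 of them that it tested, and at an unadjusted p under 0.05 there were 0 leukocyte markers and, of the endothelial ones, 1 higher and 1 lower. Ptprc, which encodes CD45, averaged 624 ± 732 and 589 ± 595, and Pecam1, which encodes CD31, 208 ± 207 and 261 ± 82.5 in GFP- and GFP+ cells (SD, n = 4 each), so neither was absent. The leukocyte sums ran from 1204 to 6340 and from 1051 to 5087, and the endothelial sums from 1357 to 2835 and from 1867 to 3548, in GFP- and GFP+ libraries. The neutrophil marker S100a8 was at 0 in all libraries but GFP+ replicate 4 (54 reads) and the endothelial marker Egfl7 in all but GFP+ replicate 2 (21 reads). DESeq2 called 1 of 8 pericyte markers higher and 2 of 4 Schwann cell markers lower, and edgeR called 0 of either list. Of the keratinocyte markers DESeq2 called 0 of 3 and edgeR 0 of the 1 it tested. Krt5 and Krt1 were at 0 in every GFP+ library and got no adjusted p, and Krt5 had an unadjusted p by DESeq2 of 0.0163, while 0 of the 3 with an adjusted p were under 0.05 unadjusted. The median log2 fold change was 0.75 for the stromal markers and 0.62 for the immediate early genes, beside 0.63 for the 10 family genes. The part of these lists in the values below was not tested, and in such bulk samples fewer cells of a type and less RNA per cell cannot be told apart.

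**Figure D2:**
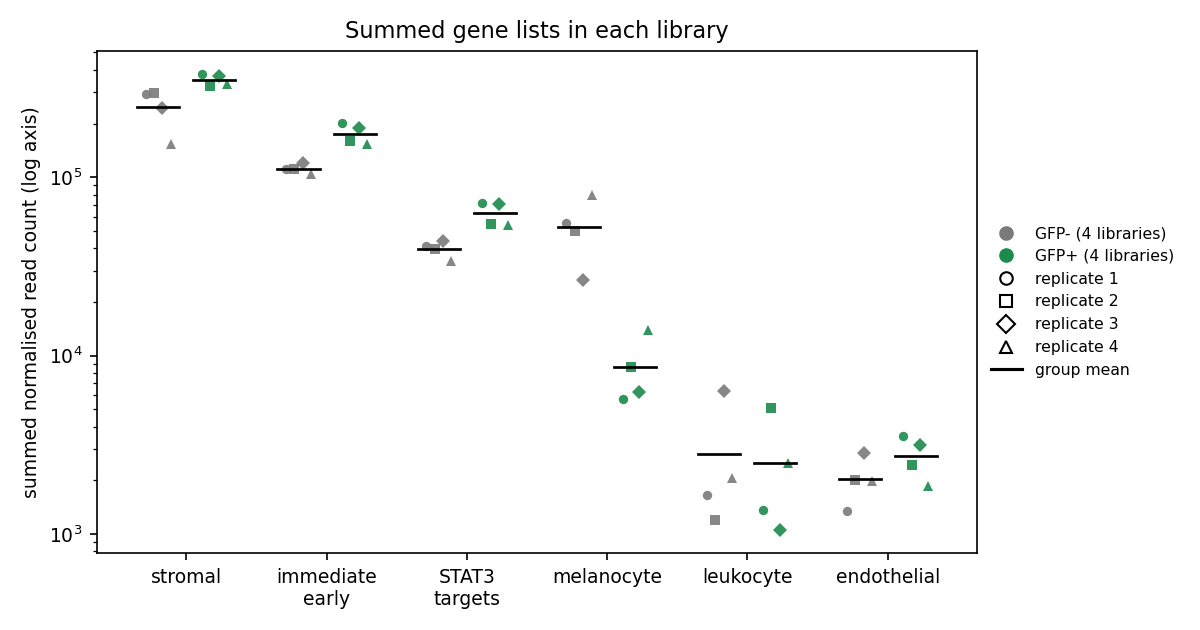
Summed normalised read counts (log axis) of 6 gene lists in each library, with the group mean as a bar. The stromal, immediate early and STAT3 target sums of the GFP+ libraries lie above all GFP- libraries, the melanocyte sums lie below them, and the leukocyte and endothelial sums overlap.

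Among the ligands, Il6 was the gene with the clearest difference. It encodes IL-6, the founding cytokine of the family, and lies on the plus strand of chromosome 5 at 30013114 to 30019981 (GRCm38, ENSMUSG00000025746). Its normalised counts were 2960, 2985, 3428 and 2710 in GFP- replicates 1 to 4 and 6484, 5358, 7908 and 5376 in GFP+ replicates 1 to 4. The lowest GFP+ library was above the highest GFP- library, and replicate 3 was the highest of each group. The means were 3021 ± 298 and 6282 ± 1205 (SD, n = 4 each), 2.09-fold higher in GFP+ cells, with a log2 fold change of 1.06 ± 0.18 (SE), an adjusted p by DESeq2 of 2.2e-07 and by edgeR of 0.00231. The call held in all 16 other settings tried, which included the removal of each library in turn.

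For Il6 and Socs3, the 250 bases before the RefSeq transcription starts (GRCm38.p6) are shown, with motifs found on either strand in capitals. They were the genes called higher whose windows held any of the motifs searched. The windows of Il6st, Osmr and Il11ra1, also called higher, held none of them. The Il6 window is chr5:30012864-30013113 on the plus strand. In it the capitals mark an AP-1 motif (TGANTCA, 249 to 243 bases before the start), the kind of site that Fos and Jun proteins bind, and an NF-κB motif (GGGAN followed by TTTCC, 44 to 35 bases before the start). The Socs3 window is chr11:117969367-117969616 on the minus strand, and the capitals mark a STAT motif (TTCNNNGAA, 154 to 146 bases before the start). This window lies inside the GENCODE interval of Socs3, in which a non-coding transcript starts further upstream.
Il6 promoter: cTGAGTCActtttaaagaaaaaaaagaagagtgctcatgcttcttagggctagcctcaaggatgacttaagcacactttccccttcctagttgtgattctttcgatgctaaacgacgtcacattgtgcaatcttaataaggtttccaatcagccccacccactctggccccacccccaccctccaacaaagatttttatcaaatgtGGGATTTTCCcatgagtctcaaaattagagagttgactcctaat
Socs3 promoter: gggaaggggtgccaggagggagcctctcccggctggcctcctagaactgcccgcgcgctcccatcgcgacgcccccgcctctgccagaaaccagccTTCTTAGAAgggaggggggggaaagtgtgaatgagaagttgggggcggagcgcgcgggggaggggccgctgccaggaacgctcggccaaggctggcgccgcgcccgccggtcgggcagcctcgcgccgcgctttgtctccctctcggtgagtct
None of the matches overlaps another. All 10 genes were matched to 13 such windows, of which the STAT motif was found in 1 (Socs3), the AP-1 motif in 3 (Il6, Il11 and Lif) and the NF-κB motif in 1 (Il6). Among 32851 promoter windows of the same length, 7.02% held the STAT motif, 6.75% the AP-1 motif and 0.356% the NF-κB motif. These are matches of letters only, and no binding was measured.

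Lif encodes leukemia inhibitory factor, which signals through the Lifr chain and gp130, and lies on the plus strand of chromosome 11 at 4257557 to 4272514 (ENSMUSG00000034394). It had normalised counts of 358, 312, 472.5 and 119.8 in the GFP- and 583, 210.0, 253.5 and 233 in the GFP+ libraries. The groups overlapped throughout, with the lowest value in GFP- replicate 4 and the highest in GFP+ replicate 1. The log2 fold change was 0.05 ± 0.45 (SE), with a 95% confidence interval from -0.83 to 0.92 and an adjusted p by DESeq2 of 0.977, so that a change of nearly the size seen for Il6 could not be told from none.

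Il11 encodes IL-11, a fibroblast cytokine that signals through Il11ra1 and gp130, and lies on the minus strand of chromosome 7 at 4772373 to 4782859 (ENSMUSG00000004371). It was the least abundant of the 10 genes, with normalised counts of 150.6, 124, 98.9 and 70.9 in GFP- and 48.6, 47.7, 33.0 and 76.2 in GFP+ libraries. A single GFP+ library, replicate 4, reached into the GFP- range. It was the only one of the 10 genes with a lower mean in GFP+ cells, 51.4 ± 18 against 111 ± 34.1 (SD, n = 4 each). The log2 fold change of -1.11 ± 0.42 (SE) had an unadjusted p by DESeq2 of 0.00837. The adjusted p was 0.0755 by DESeq2 and 0.257 by edgeR. DESeq2 called Il11 only without GFP+ replicate 4, at a log2 fold change of -1.38 and an adjusted p of 0.0459.

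Of the receptor chains, all 5 had positive log2 fold changes, between 0.50 and 0.86, and 3 of them were called. Il6st, which encodes the shared chain gp130, lies on the plus strand of chromosome 13 at 112464070 to 112510086 (ENSMUSG00000021756). The normalised counts were 7975, 6844, 5516 and 4264 in GFP- and 10750, 8618, 11560 and 9434 in GFP+ libraries. The groups did not overlap, though the highest GFP- library, replicate 1, lay just below the lowest GFP+ library, replicate 2. The means were 6150 ± 1609 and 10090 ± 1315 (SD, n = 4 each), 1.64-fold higher in GFP+ cells (log2 fold change 0.71 ± 0.22, SE), with an adjusted p by DESeq2 of 0.0149. The adjusted p was 0.0505 with edgeR, 0.0507 with DESeq2 without GFP- replicate 3 and 0.0861 without GFP+ replicate 3.

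Il11ra1 encodes the chain that binds IL-11 and lies on the plus strand of chromosome 4 at 41699989 to 41769474 (ENSMUSG00000073889). It had 1864, 1769, 1890 and 1454 normalised counts in GFP- and 3887, 3142, 3088 and 2465 in GFP+ libraries. Again the groups did not overlap, and replicate 4 was the lowest library of each. The means of 1744 ± 200 and 3145 ± 582 (SD, n = 4 each) gave a log2 fold change of 0.86 ± 0.19 (SE), a fold of 1.81, with an adjusted p by DESeq2 of 0.00018 and by edgeR of 0.00993. The call held in all 16 other settings. The gene shares its interval with Galt on the same strand, and its near-identical copy Il11ra2 had 0 reads in every library, so the split of reads between these genes is uncertain.

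Osmr encodes the chain that joins gp130 to bind oncostatin M, and with Il31ra it also forms the receptor of IL-31. It lies on the minus strand of chromosome 15 at 6813577 to 6874969 (ENSMUSG00000022146). Osmr had 1591, 1516, 2670 and 1396 normalised counts in GFP- and 2875, 2549, 2999 and 2990 in GFP+ libraries. GFP- replicate 3, the shallowest library, lay within the GFP+ range, and the other 3 GFP- libraries were close together and below all GFP+ libraries. This gave a log2 fold change of 0.69 ± 0.22 (SE), with an adjusted p by DESeq2 of 0.024 and by edgeR of 0.0586. The call rested on the libraries included. Without GFP- replicate 3 the log2 fold change was 0.92 and the adjusted p 6.59e-10, and it was between 0.0697 and 0.111 without GFP- replicate 1, 2 or 4 or GFP+ replicate 3 or 4.

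The ligand-specific chains Il6ra and Lifr were not called. Il6ra, which encodes the IL-6 binding chain that is abundant on hepatocytes and some leukocytes, lies on the minus strand of chromosome 3 at 89864059 to 89913196 (ENSMUSG00000027947), with the antisense gene Gm42809 across it. Its counts were 483, 619, 1044 and 581.5 in GFP- and 936, 930, 1142 and 746 in GFP+ libraries, with GFP- replicate 3 again the highest of its group. The log2 fold change was 0.50 ± 0.26 (SE) by DESeq2, with an adjusted p of 0.25, and 0.51 by edgeR, with 0.277. By limma voom it was 0.66, with an adjusted p of 0.0489. By DESeq2 without GFP- replicate 3 it was 0.73, with an adjusted p of 0.00728. The same library held the largest sum of leukocyte markers, 6340 against 1051 to 5087 in the other 7 libraries, and the part of these cells in the Il6ra and Osmr counts was not tested.

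Lifr encodes the LIF receptor chain and lies on the plus strand of chromosome 15 at 7090614 to 7197489 (ENSMUSG00000054263). Its counts were 1388, 965, 747 and 611 in GFP- and 1135, 1066, 1369 and 1936 in GFP+ libraries. The highest GFP- library, replicate 1, lay above 3 of the GFP+ libraries. The log2 fold change of 0.56 ± 0.30 (SE) had a 95% confidence interval from -0.02 to 1.14 and an adjusted p by DESeq2 of 0.258. Without GFP- replicate 1 the log2 fold change was 0.82 and the adjusted p by DESeq2 0.0374. Differences of the size found for Il6st were within the intervals of both Il6ra and Lifr.

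**Figure D3:**
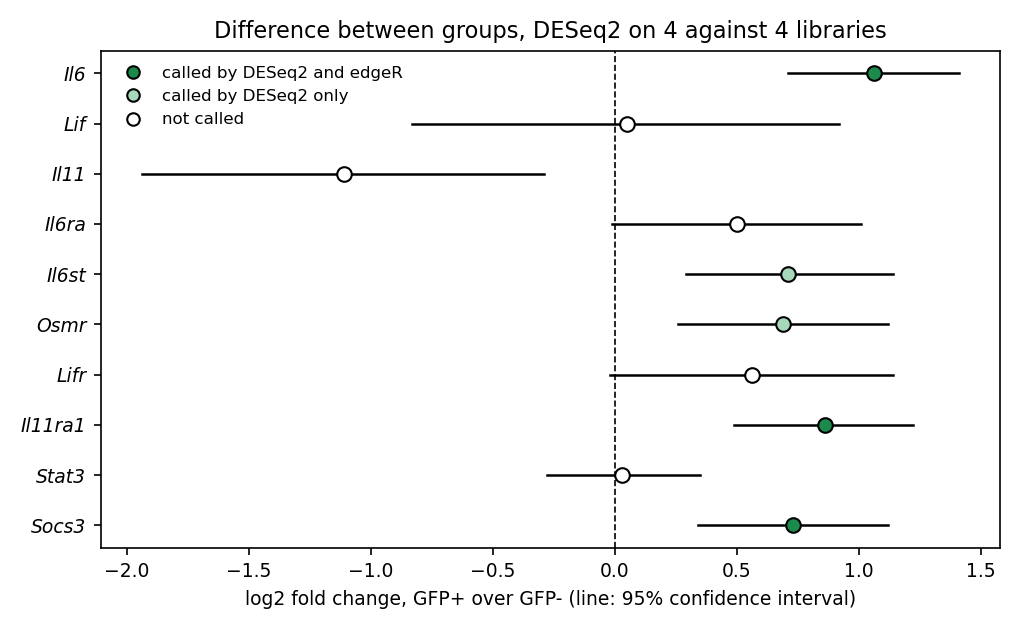
Log2 fold change of each gene, GFP+ over GFP-, from DESeq2, with its 95% confidence interval as a line. Dark points were called by DESeq2 and edgeR, light points by DESeq2 alone and open points by neither, and the interval of Stat3, from -0.28 to 0.35, is the narrowest around 0.

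Of the 2 genes of the STAT3 response, Socs3 was called and Stat3 was not. Stat3, which encodes the transcription factor itself, lies on the minus strand of chromosome 11 at 100885098 to 100939540 (ENSMUSG00000004040), overlapped on the opposite strand by Stat5a. Its normalised counts were 4301, 3900, 4329 and 4952 in GFP- and 5469, 4096, 4095 and 4248 in GFP+ libraries. Apart from GFP+ replicate 1, the GFP+ libraries lay within the range of the GFP- libraries. The log2 fold change was 0.03 ± 0.16 (SE), with a 95% confidence interval from -0.28 to 0.35 and an adjusted p by DESeq2 of 0.947.

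Socs3, the feedback inhibitor, lies on the same strand of chromosome 11 at 117966079 to 117970047 (ENSMUSG00000053113). Its normalised counts were 3837, 4537, 5274 and 5509 in GFP- and 9122, 6496, 9600 and 6572 in GFP+ libraries. The groups did not overlap, and the GFP+ libraries fell into a higher pair, replicates 1 and 3, and a lower pair, replicates 2 and 4. The same replicates 1 and 3 were the higher pair of GFP+ libraries for Il6 and Il6st. This pair was not particular to these genes. It was also the higher pair for the sums of the immediate early genes, STAT3 targets and stromal, endothelial and keratinocyte markers. For the melanocyte, leukocyte and pericyte marker sums it was the lower pair. The means of 4789 ± 758 and 7947 ± 1644 (SD, n = 4 each) were 1.66-fold apart, with a log2 fold change of 0.73 ± 0.20 (SE), an adjusted p by DESeq2 of 0.00534 and by edgeR of 0.0297. The call held in all 16 other settings, with an adjusted p of up to 0.0482 when a library was left out.

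Ratios of 2 genes inside a library hardly depend on the size factor, and 4 of them were compared between the groups with a two-sided exact permutation test (70 divisions of the libraries), which cannot give a p below 0.0286. The ratio of Socs3 to Stat3 asked whether the feedback transcript moved beyond that of its inducer. It was 0.892, 1.16, 1.218 and 1.11 in GFP- and 1.67, 1.59, 2.34 and 1.55 in GFP+ libraries. Every GFP+ library was above every GFP- library, and on the log2 scale the ratio averaged 0.12 ± 0.20 and 0.82 ± 0.28 (SD, n = 4 each), with an exact p of 0.0286, the smallest possible, and 0.114 after adjustment over the 4 ratios. The ratio of Il6 to Lif was 0.99 higher on the log2 scale in GFP+ cells, with an exact p of 0.0571 (adjusted 0.114). The ratio of Osmr to Lifr, the chains that direct oncostatin M and LIF signals, differed by 0.12 (exact p = 0.83, adjusted 0.83), and that of Il6ra to Il6st by -0.24 (exact p = 0.543, adjusted 0.724). None of the 4 ratios passed the test after adjustment. With 4 ratios adjusted, a single ratio at the smallest possible p could not pass, so this outcome does not show that the ratios were alike.

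**Figure D4:**
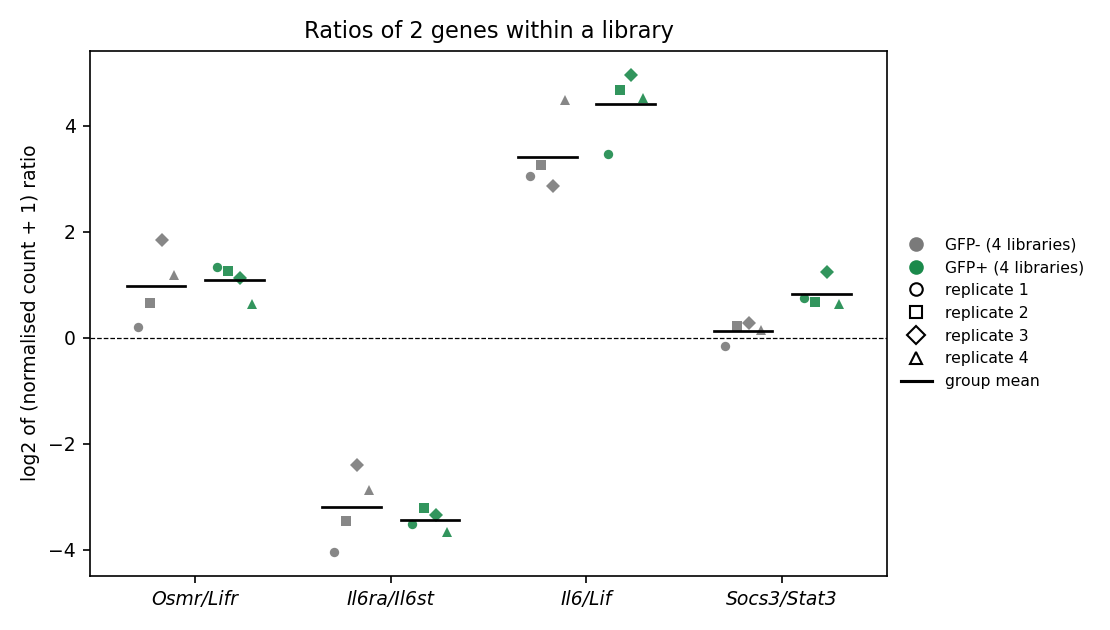
Log2 ratios of the normalised counts, each plus 1, of 2 genes within each of the 4 GFP- and 4 GFP+ libraries, with the group mean as a bar and the replicate number as the marker shape. The groups are apart only for Socs3/Stat3, which averaged 0.12 in GFP- and 0.82 in GFP+ libraries.

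Levels of different genes were compared as normalised counts per kilobase of annotated exon. In GFP- cells the order was Socs3 at 1657, Il6 at 1244, Il6st at 554, Stat3 at 459, Il11ra1 at 390.1 and Osmr at 148 counts per kilobase. Lifr at 86.1, Il6ra at 78.9, Lif at 72.5 and Il11 at 53.4 followed. Between neighbours in this order the ranges of the libraries were apart only for Il6 above Il6st and for Il11ra1 above Osmr. In GFP+ cells Socs3 at 2749 and Il6 at 2587 were again first, followed by Il6st at 909, Il11ra1 at 703.5, Stat3 at 469.9, Osmr at 235.5, Lifr at 127.7, Il6ra at 108.6, Lif at 73.6 and Il11 at 24.7. There the ranges of neighbours were apart for Il6 above Il6st, Stat3 above Osmr, Osmr above Lifr and Lif above Il11. In both groups the shared chain Il6st had the highest mean of the receptor chains per kilobase and Il6ra the lowest, although in both the range of Il6ra overlapped that of Lifr and the range of Il6st that of Il11ra1.

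The other genes of the path were read from 5 lists of 68 genes, 60 of which were tested. DESeq2 called 16 higher and 3 lower, and edgeR 10 higher and 1 lower. Over all genes tested the shares called were 4.66% higher and 4.76% lower by DESeq2, and 2.83% higher and 2.28% lower by edgeR. Among 9 other ligands only 2 had reads enough to be tested and 0 were called by DESeq2, by edgeR or at an unadjusted p under 0.05. Osm, which encodes oncostatin M, a product mainly of leukocytes, had 35.3, 11.5, 98.9 and 12.6 normalised counts in GFP- and 36.1, 28.0, 242.8 and 11.4 in GFP+ libraries. Replicate 3 was the highest library of each group, on 9 reads in GFP-, and the adjusted p by DESeq2 was 0.53. Cntf had no read in any library.

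Among the other receptor chains, Cntfr, which encodes the chain that binds ciliary neurotrophic factor, was lower in GFP+ cells. Its normalised counts were 298.5, 298.8, 274.7 and 522 in GFP- and 55.5, 73.2, 30.7 and 83.9 in GFP+ libraries. The groups were far apart, with a log2 fold change of -2.52 ± 0.37 (SE), an adjusted p by DESeq2 of 3.37e-09 and by edgeR of 0.00225. Melanocyte and Schwann cell markers were lower in the same libraries, and their part in this value was not tested. Il31ra, named here after its values were seen, averaged 11280 ± 2071 and 15840 ± 1490 (SD, n = 4 each), with no overlap between the groups, a log2 fold change of 0.49 and an adjusted p by DESeq2 of 0.0543. The remaining tested chain of this list was not called.

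Of 13 kinases, adaptors and other STAT genes, DESeq2 called 1 higher and 0 lower, against 4.66% and 4.76% of all genes tested. It was Jak1, which encodes the main kinase attached to gp130, with 5640, 5783, 8361 and 4686 normalised counts in GFP- and 10970, 9820, 11110 and 9079 in GFP+ libraries. No library overlapped between the groups, and the log2 fold change was 0.75 ± 0.20 (SE) with an adjusted p by DESeq2 of 0.00349 and by edgeR of 0.0266. Of 12 other feedback and shedding genes, DESeq2 called 1 higher and 0 lower, against the same shares. This was Socs1, an inhibitor of the JAK kinases, with 284.9, 463, 714 and 640.3 in GFP- and 1185, 799, 1019 and 950.1 in GFP+ libraries. The log2 fold change of Socs1 was 0.93 ± 0.29 (SE), with an adjusted p by DESeq2 of 0.0173 and by edgeR of 0.0508.

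Among 30 genes known as targets of STAT3, 14 were called higher and 2 lower by DESeq2, and 9 higher and 0 lower by edgeR. Over all genes tested the shares were 4.66% and 4.76% by DESeq2, and 2.83% and 2.28% by edgeR. The median log2 fold change was 0.55 for the 30 targets and -0.01 for all tested genes. Their summed normalised counts ran from 33900 to 43910 in GFP- and from 53790 to 72170 in GFP+ libraries, without overlap. Several of them, such as Lcn2, Saa3 and Myc, are also known to respond to other factors including NF-κB and AP-1. The list was drawn up with earlier results of these data known, so its direction is not independent evidence.

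The largest positive log2 fold changes among the called genes of this list were those of Lcn2, Hp, Steap4 and Saa3. Steap4, a metal reductase of the membrane, had 883, 861, 1560 and 783 normalised counts in GFP- and 3869, 3193, 3896 and 4395 in GFP+ libraries, with a wide gap between the groups, a log2 fold change of 1.94 ± 0.23 (SE) and an adjusted p by DESeq2 of 1.41e-13. Lcn2, which encodes lipocalin 2, an iron-binding protein, had 0, 8.6, 11.0 and 12.1 in GFP- and 103, 139, 96.0 and 97.6 in GFP+ libraries. The GFP- values of Lcn2 rest on 0, 12, 1 and 23 reads, and its log2 fold change was 3.82 ± 0.61 (SE) with an adjusted p by DESeq2 of 4.33e-08. Hp, which encodes haptoglobin, averaged 31.9 ± 38.7 and 141.5 ± 58.7 (SD, n = 4 each), with an adjusted p by DESeq2 of 0.0396 and by edgeR of 0.156. Saa3, a serum amyloid A, had 43.4, 99.6, 527 and 68.3 in GFP- and 504, 781.5, 728 and 581 in GFP+ libraries. Here GFP- replicate 3 alone reached the GFP+ range, as it did for Osmr, and the adjusted p by DESeq2 was 0.0194 and by edgeR 0.0584.

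The 2 lower genes of the list were Gfap and Birc5. Gfap encodes an intermediate filament of glia and Schwann cells, and averaged 45.9 ± 42.3 in GFP- and 2.64 ± 3.49 in GFP+ cells (SD, n = 4 each), with an adjusted p by DESeq2 of 0.00582 and by edgeR of 0.088. The summed Schwann cell markers ran from 547.5 to 1278 in GFP- and from 218 to 408 in GFP+ libraries. Birc5 encodes survivin, which is made by dividing cells, and averaged 186 ± 40.9 and 76.3 ± 34.8 (SD, n = 4 each), with an adjusted p by DESeq2 of 0.0212 and by edgeR of 0.118. The part of Schwann and melanoma cells in these 2 values was not tested. The study describes ADAM12+ cells as slow-cycling, and the part of that state in the Birc5 value was not tested either.

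**Figure D5:**
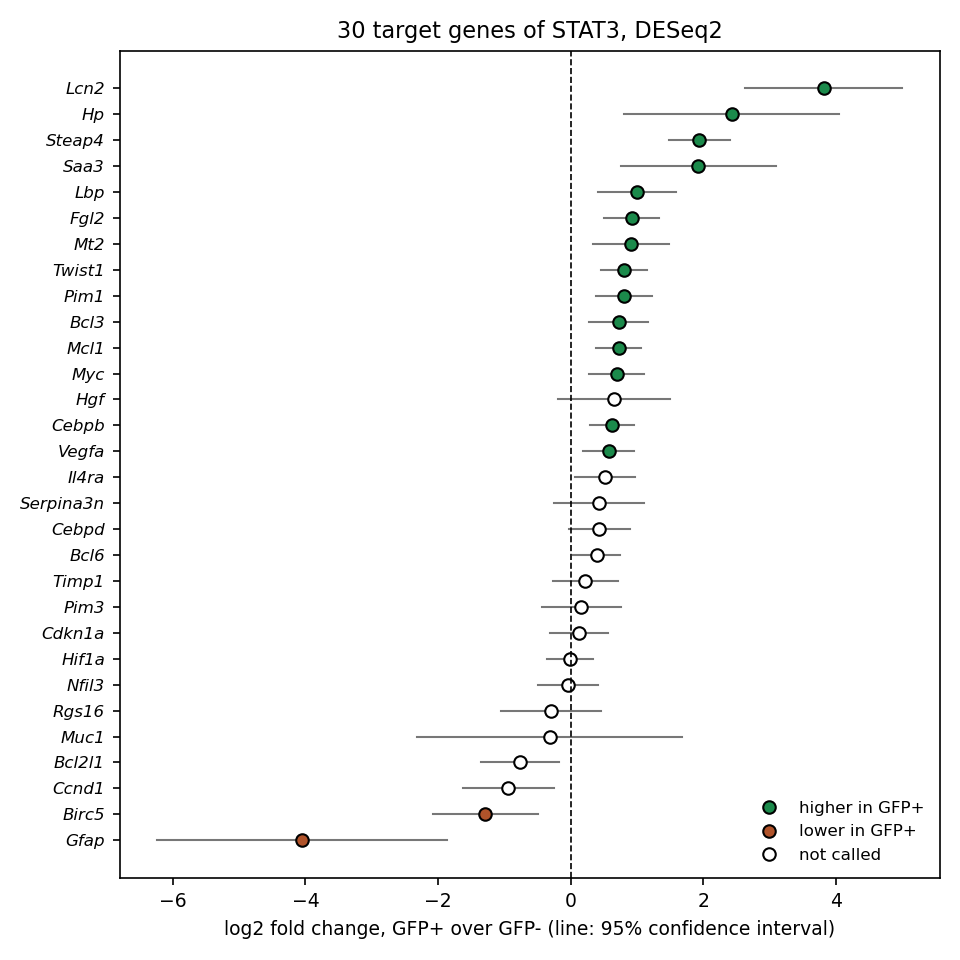
Log2 fold change, GFP+ over GFP-, of the 30 STAT3 target genes from DESeq2, with 95% confidence intervals as lines and genes ordered by value. The 14 genes called higher lie on the right, from Vegfa to Lcn2 at 3.82, with Hgf at 0.65, not called, among them. The 2 called lower are Birc5 and Gfap.

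Finally, each gene was compared with all genes of at least 100 mean normalised counts by Pearson's r of log2(normalised count + 1) over the 8 libraries, which holds both the difference between groups and the spread within them. The genes most like Il6 were Ecm1 (r = 0.991), Chrdl1 (r = 0.990) and the chemokine Cxcl1 (r = 0.985). Those most like Socs3 were Myc (r = 0.987), Tor1aip2 (r = 0.985) and Hspb8 (r = 0.983), and those most like Il6st were Mmp2 (r = 0.989), Emb (r = 0.986) and Klf6 (r = 0.986). Il11ra1 was closest to Zhx3 (r = 0.987), Adamts2 (r = 0.983) and Ggt5 (r = 0.981), and Osmr to Helz2 (r = 0.983), Fam78b (r = 0.977) and Nfia (r = 0.972). Il11, which ran the other way, was closest to Gpc6 (r = 0.953), Thbs4 (r = 0.948) and Tex10 (r = 0.944). Lif was closest to Tbc1d20 (r = 0.935), Wasf2 (r = 0.932) and Cd44 (r = 0.919), and Il6ra to Diaph1 (r = 0.967), Rev3l (r = 0.963) and Elk3 (r = 0.962). The closest to Lifr were Smim13 (r = 0.982), Pum2 (r = 0.977) and Gpm6b (r = 0.940), and to Stat3 they were Patl1 (r = 0.939), Ccdc59 (r = 0.931) and Exoc8 (r = 0.926). These are descriptions over 8 libraries that share the 2 groups, and 8811 or 8812 genes were searched for each.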

How the data were processed

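Libraries were made with a strand-keeping SMARTer Pico kit, and per the study's methods and the submitters' processing notes the authors trimmed reads with cutadapt 3.4, mapped them to GRCm38 with STAR 2.7.3a and counted them per Ensembl gene and strand with featureCounts 2.0.1. For each gene, the deposited table holds the raw read count in every library, from which all values here start, and the authors' normalised score, which equals the raw count divided by the DESeq2 size factor and rounded. The authors' own comparison columns (means, fold changes, p-values, adjusted p-values and dispersions) were not used. Per-sample columns left unused numbered 0, and 0 rows named no gene. Reads that match several genes equally well can be lost by such counting, and PCR copies were not collapsed.

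In R 4.3.3, the 29043 genes with a count were fitted with DESeq2 1.42.0, the tool of the study, (group as the only term, default size factors, two-sided Wald test, independent filtering, Benjamini-Hochberg adjustment). No adjusted p was given to 13443 genes (independent filtering) and 317 genes (Cook's distance). Calls were made at an adjusted p under 0.05. Alternatives were edgeR 4.0.16, limma 3.58.1 voom, TMM factors, a mean of at least 10 raw counts, no filters, the replicate number as a block, libraries thinned to 883144 reads, an adjusted p under 0.01 and each library left out. The code was tested on simulated data. Replicates differed by more than sampling noise (chi-square per degree of freedom 10.2 to 81.3). Coordinates and exon lengths came from GENCODE M21 (99.7% of identifiers matched), and promoters from RefSeq.

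The members and gene lists were chosen with earlier results of these data known. Genes named were the 10 members, up to 6 called genes per companion list with the largest change, Osm, Cntfr and Il11ra2, up to 3 of the most abundant genes per early or marker list, Adam12, Ptprc and Pecam1, and the 3 nearest genes per member. Pdgfra, Il31ra, S100a8, Egfl7, Krt5, Krt1, Vegfa and Hgf were named after their values were seen, and Cntf, Gm42809, Galt and Stat5a as having no read or as overlapping genes.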

Additional observations from a re-analysis of the deposited data

Results flagged for a closer look

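Each value here is the highest of its group and stood apart from the other 3 libraries by more than Dixon's limit of the gap to the nearest library over the group's range. Of 54 groups of 4 values examined, 6 met this, where chance alone marks about 1 in 20 groups. Among the family genes, Lif stood apart in GFP+ replicate 1 (583 normalised counts), Stat3 in the same library (5469) and Osmr in GFP- replicate 3 (2670). Among the summed lists, GFP- replicate 3 stood apart from the other GFP- libraries for the other family ligands (175.8) and for the leukocyte markers (6340), and GFP- replicate 1 for the Schwann cell markers (1278). GFP- replicate 3 was the library with the fewest reads.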

How the results depend on the processing

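Of 160 log2 fold changes of the 10 genes under other settings, 143 kept their direction and side of the threshold, 9 lost the call, 4 gained it and 4 changed sign. The sign changed for Lif (-0.23 without GFP- replicate 4, -0.39 without GFP+ replicate 1) and Stat3 (-0.02 without GFP- replicate 2, -0.06 without GFP+ replicate 1), neither of them called, and with a library left out these 2 ran up to 0.27 and 0.10. Of the 5 members called, edgeR and an adjusted p under 0.01 each left 3, and leaving out a library gave 3 to 5, with 3 without GFP+ replicate 3 (Il6, Il11ra1 and Socs3). Without GFP- replicate 3 there were 5, with Il6ra in place of Il6st. Genes called overall numbered 1439, and 732 with edgeR, 788 with thinned libraries, 844 at an adjusted p under 0.01 and 969 to 1837 with a library left out. Companion genes called numbered 19, and 11 with edgeR, 10 at an adjusted p under 0.01 and 10 to 19 with a library left out, with 12 without GFP- replicate 2 and 10 without GFP+ replicate 3. Early and marker genes called numbered 28, and 18 at an adjusted p under 0.01 and 21 to 32 with a library left out. The difference in Osmr/Lifr ran from -0.14 (without GFP- replicate 1) to 0.41, in Il6ra/Il6st from -0.52 to 0.03 (without GFP- replicate 3), in Il6/Lif from 0.81 to 1.35 and in Socs3/Stat3 from 0.55 to 0.75 when a library was left out. With 4 against 3 libraries an exact p can reach 0.0286, which Socs3/Stat3 did each time (0.114 after adjustment). No ratio passed after adjustment, which a single ratio at that p could not do. The cause of these shifts was not tested.

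The study gives a single n, in mice, for both sorted fractions, and no source used here ties equal replicate numbers to a mouse. The main comparison was unpaired. Deviations from the group means of same-numbered libraries correlated at 0.0503, -0.158, -0.122 and 0.262, and only replicate 4 correlated best with its own number. With 4 libraries per group, these correlations cannot show whether same-numbered libraries came from the same mouse. With the replicate block, DESeq2 called 1492 genes and the same 5 members, it changed the call of none of the 10 genes, and a paired exact test of the ratios, which cannot give a p below 0.125, called none. The depth of GFP- replicate 3 limits all values of low genes.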
